A study of Mus musculus with 8 samples.

Results

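Neuropeptides are short signalling peptides cut from larger precursor proteins, packed into dense-core vesicles and released beside the fast transmitters GABA or glutamate. In the hippocampus they are best known as labels of inhibitory interneuron classes, while granule cells of the dentate gyrus also make opioid peptides. Described here are 10 precursor genes other than Cck itself: Sst, Cort, Npy, Vip, Crh, Penk, Pdyn, Pnoc, Tac1 and Tac2. They were chosen by name, with earlier results of these data known. Their rows were found by matching Ensembl identifiers to GENCODE vM21 symbols. All 10 are among the 39017 genes of the count table, and together they took 0.00551 to 0.00868% of the counts of a cKO library and 0.00679 to 0.00778% of the counts of a WT library.

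The counts come from translating ribosome affinity purification (TRAP), in which a tagged ribosomal protein, here L10-EGFP, is used to pull down ribosomes with the RNA bound to them. The 5 conditional knockout (cKO) libraries are from CCK cre+ mice that carry L10-EGFP and are SMARCA3 fl/fl. The 3 wild-type (WT) libraries are from littermates without SMARCA3 fl/fl. SMARCA3 is the protein of the gene Hltf, a chromatin remodeller. Both groups thus share the Cre driver, which acts in cells that express Cck or did so earlier, and the tagged ribosome. Each library is a pool of 4 hippocampi, and neither age nor the relation between pools is given, so p-values measure the spread between these pools, which may in part be technical. No library of RNA before the pull-down was used here, so a count does not show that the RNA was on tagged ribosomes.

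Total counts were 31760155 to 61823651 in cKO libraries and 37239119 to 49522676 in WT libraries. Expression is given in CPM, the usual depth-scaled unit, on library totals adjusted by the trimmed mean method (TMM). Cck was at 661 ± 108 CPM in cKO (SD, n = 5) and 540 ± 112 CPM in WT (SD, n = 3). Hltf was at 2.83 to 5.10 CPM in cKO 1 to 4, against 8.39 to 13.7 CPM in WT. The library labelled cKO 5 had 11.4 CPM of Hltf, within the WT range, which goes against its label. That library and cKO 4 also stand apart from the other 6 on the first and second principal components (31.1 and 22.3% of variance), so log2 fold changes are also given for cKO 1 to 3 against WT.

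Somatostatin and cortistatin are related inhibitory peptides that act on the same receptors. Sst (mm10 chromosome 16, 23889573 to 23890958, minus strand) marks dendrite-targeting interneurons of the hippocampus. Its level was 22.6, 35.9 and 19.9 CPM in cKO 1, 2 and 3, 5.20 CPM in cKO 4 and 5.24 CPM in the library labelled cKO 5, against 18.5, 12.3 and 16.2 CPM in WT 1, 2 and 3. The cKO libraries thus fell on both sides of WT: cKO 1 to 3 lay above every WT library, and cKO 4 and the library labelled cKO 5 lay below every WT library. The group means were 17.8 ± 13.0 CPM in cKO (SD, n = 5) and 15.7 ± 3.11 CPM in WT (SD, n = 3). The edgeR log2 fold change was 0.19 (95% interval -1.03 to 1.4001) with an adjusted p of 0.956, and the exact permutation p was 0.857. The direction is not settled, since the mean of log2 CPM that the exact test uses was 0.20 lower in cKO (a difference of -0.20). Over cKO 1 to 3 alone the mean was 26.1 ± 8.58 CPM (SD, n = 3), with a log2 fold change of 0.74 against WT and an edgeR p of 0.00908 before and 0.413 after adjustment. That choice leaves out the cKO libraries in which Sst was lowest, so the unadjusted p follows in part from the choice and is no evidence of a difference. Cort (chromosome 4, 149125034 to 149126763, minus strand) was near the detection limit, at 0 to 19 counts in cKO libraries and 1 to 7 counts in WT libraries. In cKO 3 the count was 0, which allows up to 0.0935 CPM at 3 counts. Cort did not pass the filter on low counts and has no edgeR test in the comparison reported here.

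The promoter of Sst holds the sequence from which the cAMP response element (CRE) was first described in the rat, a site bound by the activity-regulated factor CREB. CRE letters were therefore looked up in the 250 bases before each RefSeq start (GRCm38.p6), which are held for 7 of the 10 genes, with 2 starts for Pdyn. The whole palindrome TGACGTCA was found at 1 of these 7 genes, Sst, and in 1.55% of all 32851 promoters. The shorter motif TGACG, searched on both strands and counted also where it is part of the palindrome, was found at 4 of the 7, Sst, Vip, Tac1 and Cort, and in 17.8% of all promoters. The 30 bases around each match are given 5′ to 3′ on the strand of the gene, with the matched letters in capitals (CGTCA is TGACG read on the other strand).
Sst, chr16:23890874-23890903, minus strand, 48 bases before the start: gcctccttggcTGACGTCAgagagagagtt
Vip, chr10:5639126-5639155, plus strand, 79 bases before the start: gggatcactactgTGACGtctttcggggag
Tac1, chr6:7554851-7554880, plus strand, 197 bases before the start: ttccctaaaattgCGTCAtttcgaacacaa
Tac1, chr6:7555005-7555034, plus strand, 43 bases before the start: ggctctacaggctCGTCAcgcctgagataa
Cort, chr4:149126765-149126794, minus strand, 18 bases before the start: gctccggcttgtgCGTCAccgcgtgagtgt
These matches describe letters and not binding. Of the 4 genes with TGACG, Vip and Tac1 had their lowest level of the 8 libraries in cKO 3, with 80 and 22 counts. Penk, which has no promoter entry here, was also lowest in cKO 3, at 19.1 CPM, and cKO 3 had the lowest total counts, 31760155. Cort had 0 counts in cKO 3, where the limit of 0.0935 CPM lies above its level in cKO 1, cKO 4, WT 1 and WT 2. The lowest library of Cort is therefore not settled. Sst had its lowest levels in cKO 4 and the library labelled cKO 5. The start used here is that of RefSeq. GENCODE starts Sst and Tac1 further upstream, so the Sst stretch and the second Tac1 stretch lie inside the gene coordinates printed here, and the first Tac1 stretch reaches into them.

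Npy (chromosome 6, 49822710 to 49829507, plus strand) encodes neuropeptide Y, which dampens glutamate release and is made by several interneuron classes. It was among the steadiest of the 10 genes. Its level was 4.33, 6.44, 4.08 and 3.91 CPM in cKO 1 to 4 and 4.43 CPM in the library labelled cKO 5, against 3.75, 5.96 and 4.51 CPM in WT 1, 2 and 3. Of the 5 cKO libraries 4 lay within the WT range and cKO 2 lay above it. Npy had a log2 fold change of -0.03 (95% interval -0.65 to 0.58), with an adjusted p in edgeR of 0.985 and an exact permutation p of 0.893. On the linear scale this interval runs from 0.639-fold to 1.499-fold. Over cKO 1 to 3 the log2 fold change of Npy was 0.06.

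Vip (chromosome 10, 5639218 to 5647617, plus strand) encodes vasoactive intestinal peptide, which marks interneurons that mostly inhibit other interneurons and, in part, basket cells that also make CCK. It was at 6.95, 7.59, 2.49 and 3.07 CPM in cKO 1 to 4 and 5.65 CPM in the library labelled cKO 5, against 9.84, 6.47 and 5.83 CPM in WT. No cKO library exceeded the WT range, and 3 of 5 lay below it. The mean was 5.15 ± 2.28 CPM in cKO (SD, n = 5) and 7.38 ± 2.15 CPM in WT (SD, n = 3). With a log2 fold change of -0.51 (95% interval -1.35 to 0.32), an edgeR adjusted p of 0.749 and an exact permutation p of 0.232, the difference did not pass. For Vip over cKO 1 to 3 the log2 fold change was -0.37. Crh (chromosome 3, 19693401 to 19695396, minus strand), the precursor of the stress peptide corticotropin-releasing hormone, had 0 to 14 counts in cKO libraries and 3 to 45 counts in WT libraries. A single library, WT 1, held 45 of the 55 WT counts, or 1.196 CPM, while the other 7 libraries lay at 0 to 0.224 CPM. In the library labelled cKO 5 the count was 0, which allows up to 0.0815 CPM. Crh did not pass the filter on low counts either, and its exact permutation p was 0.446.

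**Figure D1:**
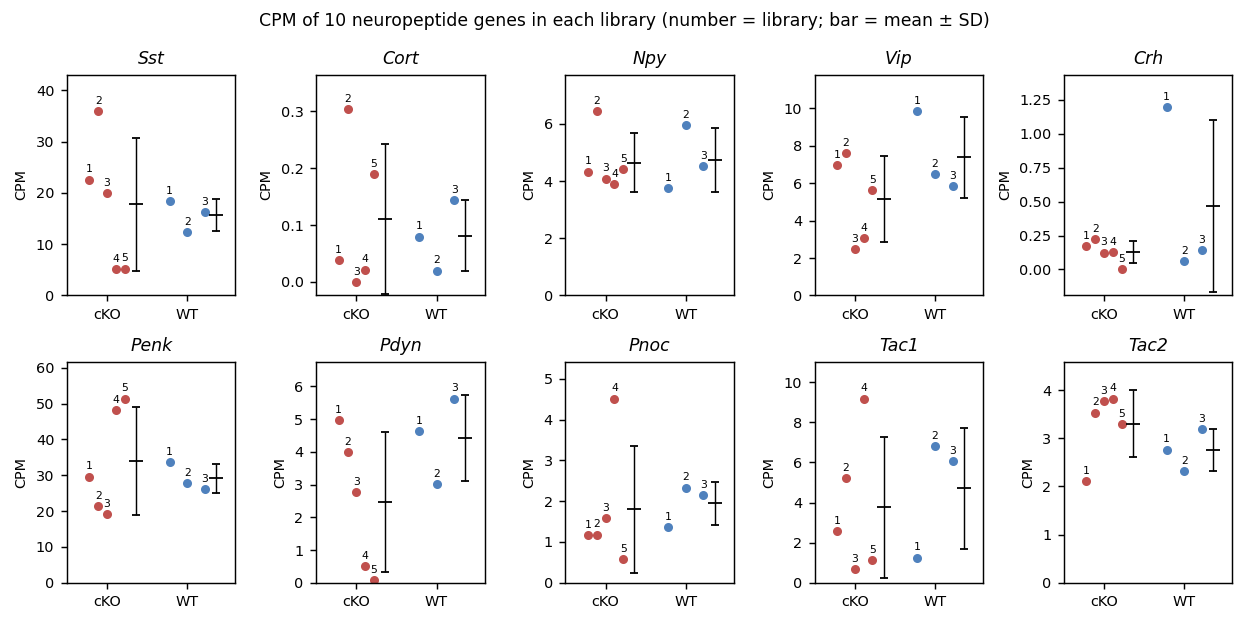
CPM of each of the 10 genes in the 5 cKO libraries (red) and 3 WT libraries (blue); numbers name the library and bars give the mean ± SD. Sst and Penk show cKO 4 and the library labelled cKO 5 outside the WT range on opposite sides, Sst at 5.20 and 5.24 CPM and Penk at 48.2 and 51.4 CPM.

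The opioid family comprises Penk, which encodes the enkephalins, Pdyn, which encodes the dynorphins, and Pnoc, which encodes nociceptin. Penk (chromosome 4, 4133531 to 4138819, minus strand) had the highest CPM of the 10 genes in both groups. It was at 29.6, 21.4, 19.1 and 48.2 CPM in cKO 1 to 4 and 51.4 CPM in the library labelled cKO 5, against 33.7, 27.7 and 26.1 CPM in WT 1, 2 and 3. As with Sst, cKO lay on both sides of WT, but with the libraries turned round: cKO 4 and the library labelled cKO 5 were above all WT libraries and cKO 2 and 3 below them. For Penk the log2 fold change was 0.22 (95% interval -0.47 to 0.91), with an adjusted p in edgeR of 0.888 and an exact permutation p of 0.768. Over cKO 1 to 3 the mean was 23.4 ± 5.53 CPM (SD, n = 3) and the log2 fold change against WT was -0.33, with an adjusted p in edgeR of 0.610. A noncoding gene on the opposite strand, A830012C17Rik, shares 233 exon bases with Penk and averaged 0.164 CPM over the 8 libraries. Whether the counting used strand is not given.

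The contrast between Sst and Penk can be read within each library, where scaling plays no part. The ratio of Sst to Penk in CPM was 0.762, 1.68 and 1.04 in cKO 1, 2 and 3, 0.108 in cKO 4 and as low as 0.102 in the library labelled cKO 5, against 0.547, 0.444 and 0.621 in WT 1, 2 and 3. The lowest and the highest of these ratios differ 16.5-fold within cKO and 1.4005-fold within WT. Penk made up 24.9 to 71.4% of all counts of the 10 genes in cKO libraries and 37.3 to 43.8% in WT libraries. In these bulk pools, fewer cells of a type and less RNA per cell cannot be told apart.

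Pdyn (chromosome 2, 129686565 to 129699844, minus strand) is best known in the hippocampus from granule cells, whose mossy fibres hold dynorphin. Its level was 4.98, 4.00 and 2.78 CPM in cKO 1, 2 and 3, 0.518 CPM in cKO 4 and 0.0815 CPM in the library labelled cKO 5, against 4.63, 3.01 and 5.63 CPM in WT 1, 2 and 3. The last 2 cKO values rest on 24 and 3 counts, and the exact Poisson interval of the 3 counts runs from 0.0168 to 0.238 CPM (95%, counting error only). All WT libraries and cKO 1 and 2 lay above 3 CPM, and the 2 low libraries are those that stand apart from the rest. The log2 fold change was -0.83 (95% interval -2.67 to 1.002), with an adjusted p in edgeR of 0.830 and an exact permutation p of 0.214. Over cKO 1 to 3 the mean was 3.92 ± 1.10 CPM (SD, n = 3) and the log2 fold change was -0.18, with an adjusted p in edgeR of 0.900.

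Pnoc (chromosome 14, 65400673 to 65425472, minus strand) encodes a peptide that acts on its own receptor and not on the classical opioid receptors. It was at 1.17, 1.18, 1.59 and 4.51 CPM in cKO 1 to 4 and 0.570 CPM in the library labelled cKO 5, against 1.36, 2.33 and 2.14 CPM in WT. The highest and the lowest of all 8 libraries were thus cKO 4 and the library labelled cKO 5, with 209 and 21 counts. For Pnoc the log2 fold change was -0.11 (95% interval -1.44 to 1.22), with an adjusted p in edgeR of 0.980 and an exact permutation p of 0.571. Over cKO 1 to 3 it was -0.58, with an adjusted p of 0.704 in edgeR.

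The tachykinins are excitatory peptides: Tac1 encodes substance P and neurokinin A, and mouse Tac2 encodes neurokinin B. Tac1 (chromosome 6, 7554879 to 7565834, plus strand) was at 2.59, 5.23, 0.686 and 9.18 CPM in cKO 1 to 4 and 1.14 CPM in the library labelled cKO 5, against 1.25, 6.79 and 6.06 CPM in WT 1, 2 and 3. Both groups held low and high libraries, with WT 1 far below WT 2 and WT 3, so the spread of Tac1 was not confined to cKO. The highest library exceeded the lowest 13.4-fold within cKO and 5.44-fold within WT. Tac1 had a log2 fold change of -0.32 (95% interval -1.99 to 1.35), with an adjusted p in edgeR of 0.941 and an exact permutation p of 0.607. With cKO 1 to 3 alone it was -0.72, with an adjusted p of 0.784 in edgeR.

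Tac2 (chromosome 10, 127724478 to 127731768, plus strand) was at 2.11, 3.53, 3.77 and 3.82 CPM in cKO 1 to 4 and 3.29 CPM in the library labelled cKO 5, against 2.77, 2.31 and 3.20 CPM in WT. Of the 5 cKO libraries 4 lay above the WT range and cKO 1 lay below it. Its log2 fold change was 0.26 (95% interval -0.43 to 0.95), with an adjusted p in edgeR of 0.870 and an exact permutation p of 0.339. Against WT, cKO 1 to 3 alone gave 0.18.

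Setting cKO against WT asks which RNAs of the pull-down differ between libraries labelled as lacking SMARCA3 and WT libraries. The library labelled cKO 5, with Hltf within the WT range, is included under its label. Of the 10 genes 8 passed the filter on low counts, and 0 of these 8 were called at an edgeR adjusted p under 0.05, where 0% of all 17654 genes tested were called. At an unadjusted edgeR p under 0.05 there were likewise 0 of 8, against 8.72% of all genes tested. The groups did not overlap in 0 of the 8, against 7.19% of all genes tested. DESeq2 gave an adjusted p for 3 of the 10, Sst, Vip and Penk, and called 0 of them, against 1.31% of its 10893 genes; limma-voom called 0 of 8. The log2 fold change lay above 0 for 3 of the 8 and below 0 for 5, with a median of -0.07, while 53% of all genes tested lay above 0 with a median of 0.02. The smallest p that the exact test can give over the 56 splits is 0.0179.

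**Figure D2:**
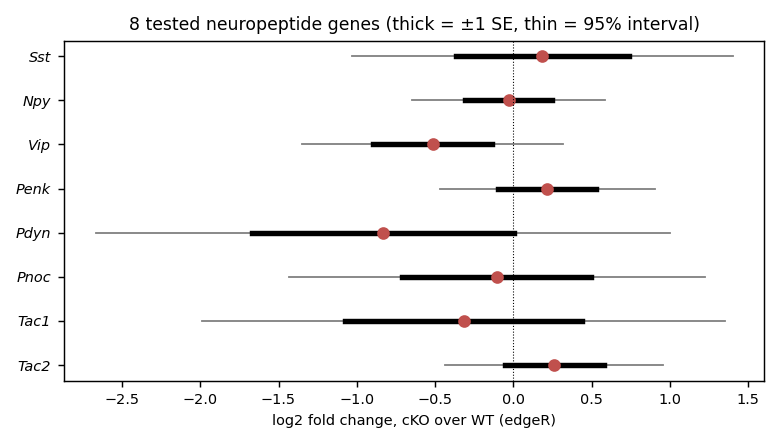
edgeR log2 fold change of cKO over WT for the 8 tested genes, with ±1 SE (thick) and the 95% interval (thin). All 8 intervals include 0, and they range in width from Npy (-0.65 to 0.58) to Pdyn (-2.67 to 1.002).

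What set the genes apart from each other was the spread between libraries. The SD of log2 CPM over the 8 libraries was 1.95 for Pdyn, 1.37 for Tac1, 0.99 for Sst and 0.51 for Penk. Among genes within 0.5 log2 units of the same mean level, the SD was smaller than that of Sst for 99.8% of 2207 genes, smaller than that of Pdyn for 99.6% of 1403, smaller than that of Tac1 for 97.9% of 1507 and smaller than that of Penk for 97.1% of 2313. At the other end, Npy (SD 0.28) and Tac2 (SD 0.32) varied less than most genes of their level, since only 12.6 and 13.3% of such genes had a smaller SD. Vip stood at 85.0% and Pnoc at 69.1%. Within WT alone the SD of log2 CPM was 0.30 for Sst, 0.19 for Penk and 0.46 for Pdyn, against 1.28, 0.65 and 2.27 within cKO. For Tac1 it was 1.34 within WT and 1.502 within cKO. These are descriptions, as the libraries also define the level windows.

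**Figure D3:**
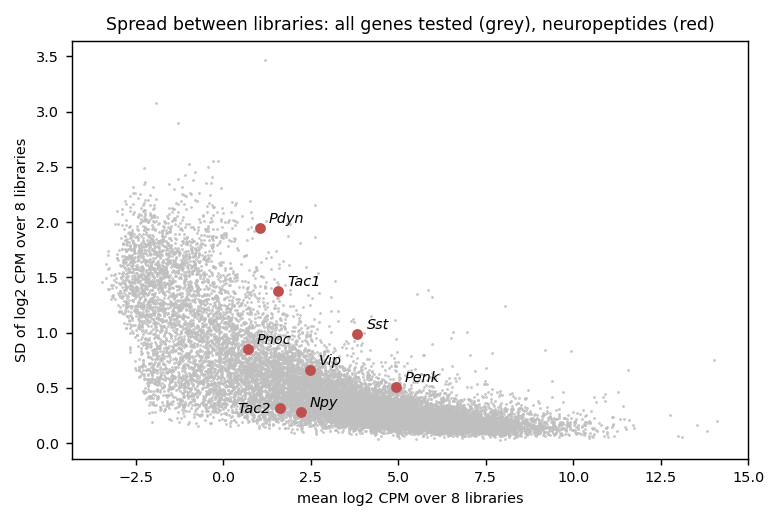
SD of log2 CPM over the 8 libraries against mean log2 CPM for all 17654 genes tested (grey) and the 8 tested neuropeptide genes (red). Sst, Pdyn, Tac1 and Penk lie near the upper edge of genes of their level, and Npy and Tac2 near the lower edge.

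Levels of different genes are compared per kilobase of exon. Sst ranked first by the group median in both groups, at 27.6 CPM per kilobase in cKO (range 7.22 to 49.8) and 22.5 CPM per kilobase in WT (17.1 to 25.6). Penk followed at 18.1 CPM per kilobase in cKO (11.7 to 31.5) and 16.98 CPM per kilobase in WT (16.0 to 20.6), and Npy came next at 7.65 CPM per kilobase in cKO and 7.98 CPM per kilobase in WT. Sst exceeded Penk in 3 of 5 cKO libraries and 3 of 3 WT libraries, so their order did not hold in cKO 4 and the library labelled cKO 5. Penk exceeded Npy, and Npy exceeded Tac2, in all 8 libraries. Tac2, Vip, Pdyn, Tac1 and Pnoc had medians of 0.548 to 2.56 CPM per kilobase in cKO and 0.994 to 2.01 in WT, and neighbours among them changed places between libraries. With the longest coding transcript as the length, a choice made after seeing the data, the first 3 places stayed as they were, while in WT Tac1 took rank 4 at 4.93 CPM per kilobase and Tac2 rank 6 at 3.25 CPM per kilobase. Crh and Cort were lowest, with medians of at most 0.118 CPM per kilobase in either group.

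Levels of cell type lists also differed between libraries, though not all lists in the same libraries or direction. The 20 genes of the granule and mossy cell list (all tested, 0 called) summed to 1394.5 to 2335 CPM in cKO and 1546 to 2191 CPM in WT. Their mean log2 level against the WT mean was 0.54, 0.55 and 0.26 in cKO 1 to 3, -1.34 in cKO 4 and, for the library labelled cKO 5, -0.65, against -0.61, 0.15 and 0.45 in WT 1, 2 and 3. Pdyn and Sst were low in the same 2 cKO libraries, but not in WT 1, where the granule and mossy list was also low. Prox1, a transcription factor of granule cells picked after its values were seen, was at 155 to 187 CPM in cKO 1 to 3, 37.9 CPM in cKO 4 and 46.5 CPM in the library labelled cKO 5, against 43.1, 97.0 and 178 CPM in WT 1, 2 and 3. Not every gene of the list fell in both of those cKO libraries. Drd2, with the smallest edgeR p of the list, was at 0.518 CPM in cKO 4 and 5.38 CPM in the library labelled cKO 5. In WT it was at 1.25 to 2.41 CPM. Drd2, Lct (27.2 CPM) and Ajap1 (51.2 CPM) each had their highest level of all libraries in the library labelled cKO 5.

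The 29 interneuron genes (all tested, 0 called) summed to 726 to 842 CPM in cKO and 709 to 807 CPM in WT. Their mean log2 level against WT was lowest in the library labelled cKO 5 at -0.38, and was 0.27 in cKO 4. At an unadjusted edgeR p under 0.05 there was 1 higher and 1 lower of the 29, where 5.02 and 3.7% of all genes tested were. The groups did not overlap in 2 of the 29, against 7.19% of all genes tested. Cnr1, the most abundant, was at 132 to 170 CPM in cKO and 131 to 153 CPM in WT. The part of cell composition in the neuropeptide values was not tested. The striatum and the habenula and thalamus also make several of these peptides. Of the 10 striatal genes 7 were tested and 0 called. At an unadjusted edgeR p under 0.05, 1 was higher and 1 lower, where 5.02 and 3.7% of all genes tested were. The 10 summed to 91.4 to 139 CPM in cKO and 84.2 to 98.7 CPM in WT, with the highest sum in the library labelled cKO 5. Their mean log2 level against WT was 0.17 in cKO 4, 1.005 in that library and -0.20 to -0.01 in cKO 1 to 3. Pde10a, the most abundant, was at 69.5 to 104 CPM in cKO and 67.0 to 75.8 CPM in WT, and Ppp1r1b at 6.65 to 18.0 CPM in cKO and 6.93 to 8.59 CPM in WT. Ido1 had 54 counts in cKO 4 and 172 counts in the library labelled cKO 5, the libraries in which Penk was high, and at most 12 counts in any other library. Isl1 had 0 counts in all 8 libraries, and Adora2a averaged 0.0249 CPM in cKO and 0.0137 CPM in WT. The 8 habenula and thalamus genes (6 tested, 0 called) summed to 55.2 to 97.9 CPM in cKO and 62.6 to 87.8 CPM in WT. Nwd2 was at 24.4 to 43.0 CPM in cKO and 31.7 to 45.3 CPM in WT, while Pou4f1 averaged 0.0665 CPM in cKO and 0.00664 CPM in WT. The part of RNA from these regions in the neuropeptide values was not tested.

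**Figure D4:**
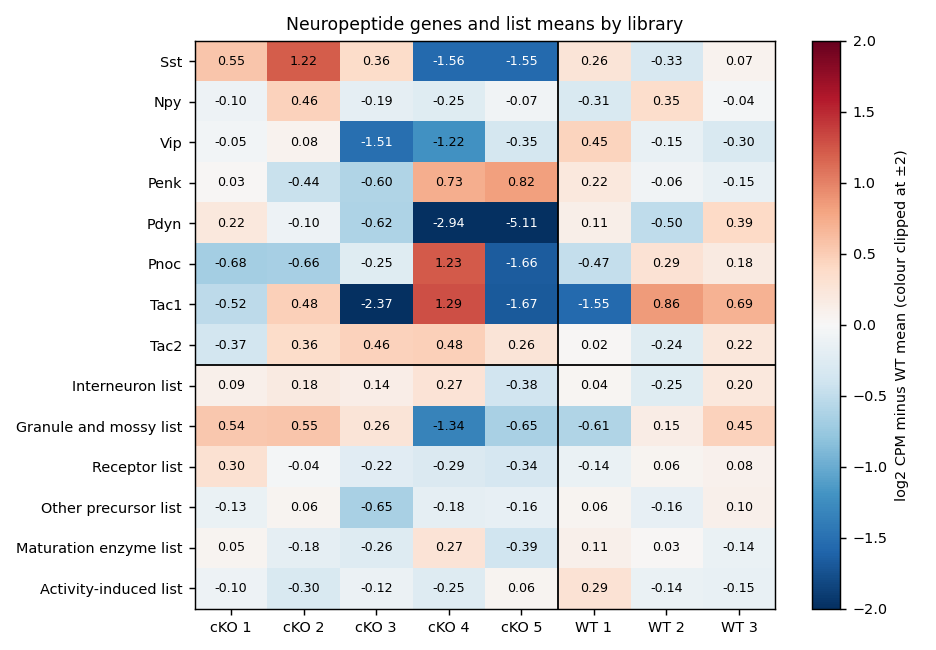
Log2 CPM minus the WT mean in each library for the 8 tested neuropeptide genes (above the line) and for the mean of 6 gene lists (below it), cKO libraries left of WT libraries. Sst, Pdyn and the granule and mossy list are low in cKO 4 and the library labelled cKO 5, where Penk is at 0.73 and 0.82.

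The genes with the library pattern most like a member were found by the root mean square difference of centred log2 CPM over 8 libraries, among genes of at least 5 CPM, for the 3 members of at least 5 CPM with the largest SD. Closest to Penk were Nkain4 (0.10 log2 units), Scn4b (0.15) and Icmt (0.16), against a median of 0.52 over 10965 genes. Scn4b, a sodium channel beta subunit, was at 17.6 CPM in cKO 4 and 17.7 CPM in the library labelled cKO 5, and at 7.22 to 12.8 CPM in the other 6 libraries. Closest to Sst were Alg6 (0.36), Zfp51 (0.39) and Tuba8 (0.39), against a median of 0.96. Closest to Vip were Crispld1 (0.30), Ercc5 (0.31) and Xrcc4 (0.35), against a median of 0.66. The closest of so many genes lie below the median by the way they are picked. Whether any of them shares a cause with a member was not tested.

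Receptors and the binding protein of these peptides formed a list of 23 genes, of which 19 were tested and 0 called by edgeR. Their median log2 fold change was 0.09, with 14 above 0 and 5 below 0. At an unadjusted p under 0.05 there was 1 higher, where 5.02% of all genes tested were, and 0 lower, where 3.7% were. That gene was Sstr4, a somatostatin receptor, which was at 42.5, 39.9, 49.9 and 84.5 CPM in cKO 1 to 4 and 79.7 CPM in the library labelled cKO 5, against 43.2, 42.4 and 34.5 CPM in WT. The high values are those of the 2 libraries in which Penk was high and Sst low, and cKO 1 and 2 lay within the WT range. The log2 fold change of Sstr4, 0.57 (SE 0.26), had an adjusted p of 0.566 in edgeR.

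The Npy receptors Npy2r and Npy1r were among the 4 most abundant genes of the list. Npy2r was at 78.1 ± 24.4 CPM in cKO (SD, n = 5) and 77.8 ± 22.9 CPM in WT (SD, n = 3), and Npy1r was at 41.3 ± 5.79 and 39.2 ± 6.19 CPM. Their log2 fold changes were 0.01 (SE 0.24) and 0.08 (SE 0.16). Adcyap1r1, a receptor of PACAP that binds the Vip peptide weakly, was at 59.7 ± 10.01 CPM in cKO (SD, n = 5) and 47.2 ± 8.18 CPM in WT (SD, n = 3), with an adjusted p in edgeR of 0.581. Vipr1 was at 2.53 ± 0.543 and 2.35 ± 0.620 CPM. Among somatostatin receptors, Sstr3 (19.7 ± 3.84 and 19.0 ± 0.190 CPM), Sstr2 (6.27 ± 3.82 and 6.99 ± 1.36 CPM) and Sstr1 (1.66 ± 0.730 and 1.502 ± 0.488 CPM) had mean differences smaller than the SD within cKO.

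Of the opioid receptors, Oprm1, the mu receptor that binds enkephalins, was the 1 of 19 tested genes of the receptor list whose groups did not overlap, where 7.19% of all genes tested did not, so the list does not exceed that share. Its level was 3.14 and 3.404 CPM in cKO 1 and 2, 0.499 and 0.561 CPM in cKO 3 and 4 and 0.815 CPM in the library labelled cKO 5, against 3.94, 4.14 and 3.71 CPM in WT. The cKO libraries split into 2 close to WT and 3 far below. Oprm1 had -1.21 (SE 0.63) as its log2 fold change, an adjusted p of 0.620 in edgeR and an exact permutation p of 0.0357, unadjusted for the other genes of the list. Oprl1, the nociceptin receptor, was at 19.3 ± 3.70 CPM in cKO (SD, n = 5) and 18.1 ± 2.70 CPM in WT (SD, n = 3), while Oprd1 and Oprk1 were at 1.77 ± 1.53 and 1.11 ± 0.638 CPM in cKO and 2.39 ± 1.71 and 1.09 ± 0.236 CPM in WT. The receptors Npy5r, Tacr3, Tacr1 and Crhr1 and the binding protein Crhbp had edgeR adjusted p-values of 0.769 to 0.880.

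**Figure D5:**
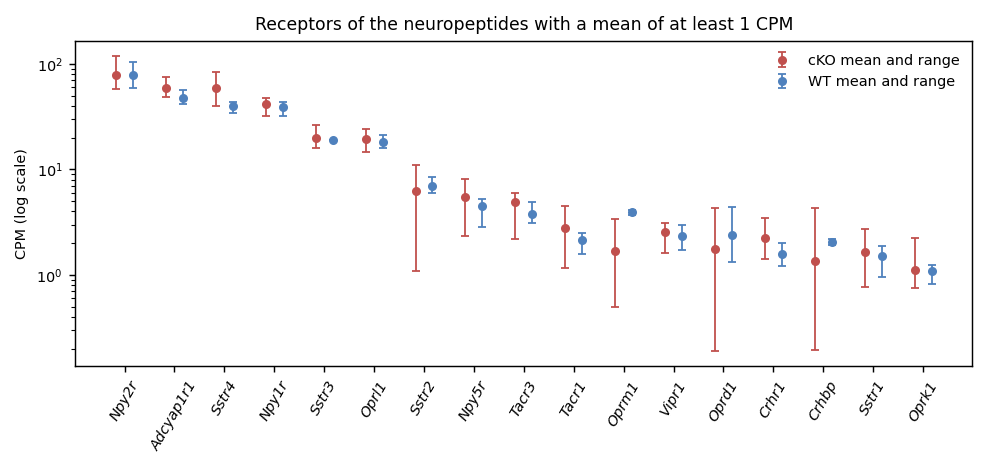
Mean CPM (log scale) with the lowest and highest library for the 17 genes of the receptor list with a mean of at least 1 CPM, cKO in red left of WT in blue. The ranges of cKO and WT are apart for Oprm1, at 0.499 to 3.404 CPM in cKO and 3.71 to 4.14 CPM in WT.

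A further 43 neuropeptide precursors were listed, of which 42 have a row in the table, 15 were tested and 0 were called by edgeR. Of these 42, 8 had no count in any library, among them the hypothalamic peptide genes Oxt and Hcrt, and 36 averaged under 1 CPM. Nts, which encodes neurotensin, had the smallest edgeR p of the list. It was at 5.56, 4.12, 4.12 and 4.04 CPM in cKO 1 to 4 and 1.39 CPM in the library labelled cKO 5, against 12.6, 8.86 and 7.98 CPM in WT. All 5 cKO libraries lay below all 3 WT libraries. The log2 fold change was -1.35 (SE 0.37), with 0.00361 as edgeR's p before adjustment and 0.499 after it. The exact permutation p of Nts was 0.0179, the smallest these libraries allow. It is unadjusted for the other genes of the list, from which Nts was picked by its edgeR p on the same libraries. Nts and Pmch were the 2 of 15 genes with an unadjusted p under 0.05, both lower in cKO and without overlap, where 3.7% of all genes tested were lower at that p and 7.19% did not overlap. Pmch was at 0 to 11 counts in cKO libraries and 16 to 31 counts in WT libraries.

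Grp and Adcyap1, precursors of gastrin-releasing peptide and PACAP, ranked first and second of these by the mean over all 8 libraries, with Grp at 29.5 ± 5.27 CPM in cKO (SD, n = 5) and 29.2 ± 2.53 CPM in WT (SD, n = 3). Adcyap1 was at 10.9 ± 3.29 CPM in cKO and 13.5 ± 3.78 CPM in WT. Cartpt, the CART precursor, had a higher mean than Adcyap1 within cKO, 15.1 ± 21.2 CPM (SD, n = 5), which rests on 1 library. It was at 52.6 CPM in the library labelled cKO 5, at 1.87 to 10.8 CPM in cKO 1 to 4 and at 2.92 to 11.1 CPM in WT. Trh, picked after its values were seen, was not tested and had 236 counts in the library labelled cKO 5, 56 in cKO 2, 7 in cKO 4 and 0 in cKO 1, cKO 3 and all WT libraries.

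Enzymes and chaperones that mature the precursors formed a list of 8 genes, all tested, with 0 called by edgeR. Cpe, the carboxypeptidase that trims the cut peptides, was at 2088 ± 375 CPM in cKO (SD, n = 5) and 2449 ± 304 CPM in WT (SD, n = 3). Pcsk2, a convertase, was at 190 ± 17.9 and 181 ± 21.9 CPM. Scg5, which encodes the chaperone of that convertase, was the 1 of 8 with an unadjusted p under 0.05, where 8.72% of all genes tested were in either direction. It was at 194, 171, 161 and 257 CPM in cKO 1 to 4 and 173 CPM in the library labelled cKO 5, against 92.7, 165 and 83.8 CPM in WT. WT 2 lay within the cKO range and the other WT libraries below it. The log2 fold change of Scg5, 0.75 (SE 0.23), had an adjusted p of 0.499 in edgeR. Pcsk1, the other neuronal convertase, was at 5.15 ± 2.03 CPM in cKO (SD, n = 5) and 7.53 ± 1.17 CPM in WT (SD, n = 3), with an adjusted p in edgeR of 0.665.

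Of the 25 activity-induced genes, a group that includes transcription factors acting on neuropeptide promoters, all were tested, 0 were called and 0 had an unadjusted edgeR p under 0.05. Their median log2 fold change was -0.12, with 10 above 0 and 15 below 0. Egr1, the most abundant, was at 301 ± 102 CPM in cKO (SD, n = 5) and 350 ± 84.5 CPM in WT (SD, n = 3). Among non-neuronal lists, the 10 oligodendrocyte genes all had a log2 fold change above 0, with a median of 0.73 and 0 called. At an unadjusted edgeR p under 0.05, 3 of the 10 were higher, where 5.02% of all genes tested were, and 3 did not overlap, where 7.19% of all did not. They had summed levels of 84.6 to 110 CPM in cKO and 72.5 to 77.7 CPM in WT. Of 7 tested oligodendrocyte precursor genes 2 were higher at that p and 1 did not overlap, and the 8 listed summed to 9.11 to 12.005 CPM in cKO and 6.21 to 6.73 CPM in WT. The sums of the astrocyte (345 to 510 and 333 to 443 CPM), microglia (2.72 to 7.53 and 4.55 to 7.65 CPM) and vessel lists (24.0 to 88.6 and 57.5 to 76.4 CPM) overlapped between cKO and WT. The part of these cells in the neuropeptide values was not tested.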

How the data were processed

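RNA from TRAP pull-downs of 8 hippocampal libraries (5 cKO, 3 WT) was analysed. The authors deposited raw counts per Ensembl gene, made with STAR 2.5.3a and HTSeq on mm10, per the submitters' processing notes; the annotation release, strandedness and filters are not given in the sources used here. Symbols and exon lengths came from GENCODE vM21 (96.6% of 39017 genes matched), promoters from RefSeq. Genes were tested in R 4.3.3 with edgeR 4.0.16 (filterByExpr, TMM, robust quasi-likelihood fit, two-sided, Benjamini-Hochberg over 17654 genes), checked on simulated counts. Log2 CPM used a prior count of 2. Exact permutation tests were two-sided on the absolute difference of mean log2 CPM over all 56 splits. DESeq2 1.42.0 and limma 3.58.1 were alternatives. Intervals of counts are Poisson, at 95%, and the limit of a count of 0 is 3 counts; both cover counting error only. Figures used matplotlib 3.10.9.

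The 10 genes and the other lists (13 lists, 212 genes) were chosen with earlier results of these data known. All 10 genes are named, with Hltf, receptors of at least 1 CPM, and from each other list the 4 genes of smallest p and the 3 of highest CPM, of which those described are a part.

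Library numbers did not pair cKO with WT: the deviations from group means of same-numbered libraries had r of -0.08, 0.02 and 0.04 over genes. No 2 libraries of a group were alike within sampling noise (chi-square per degree of freedom at least 25.8).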

Additional observations from a re-analysis of the deposited data

Results flagged for a closer look

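Of 25 sets of 5 cKO values (the 10 genes, Hltf and the means of 14 lists), 4 held a library whose gap to the nearest other exceeded 0.71 of the whole range on the log2 scale, where chance gives about 1 in 20, or 1.25. Npy in cKO 2 was at 6.44 CPM, with the other cKO libraries at 3.91 to 4.43 CPM. Tac2 in cKO 1 was at 2.11 CPM, with the others at 3.29 to 3.82 CPM. Crh in the library labelled cKO 5 was at 0 CPM, with the others at 0.125 to 0.224 CPM, a difference of at most 14 counts. The interneuron list in the library labelled cKO 5 had a mean log2 level 0.38 units below that of WT (-0.38), with the others at 0.09 to 0.27. Sst, Penk and Pdyn were not picked out by this measure. It looks for a single library apart from the rest. It therefore misses libraries that lie apart together, as cKO 4 and the library labelled cKO 5 do for Sst and Penk.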

How the results depend on the processing

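None of the 10 genes was called under any of the 20 alternatives that give it an adjusted p. Counts of all genes called higher and lower were 1 and 0 with library totals, 2 and 0 without a filter, 2 and 0 keeping genes that reached 1 CPM in 3 libraries, 86 and 57 by DESeq2, 3 and 1 by limma-voom, 5 and 5 over the 6 libraries of cKO 1 to 3 and WT, and 151 and 57 with the non-neuronal covariate. They were 0 and 0 in the other alternatives, also in those 6 libraries with a replicate block. With any 1 library left out the counts were 0 and 0. The interneuron covariate was the mean log2 CPM of the tested interneuron genes in each library. The non-neuronal covariate was that of the tested astrocyte, oligodendrocyte, oligodendrocyte precursor, microglia and vessel genes.

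Of 160 log2 fold changes of single genes, 143 kept their direction and 17 reversed. Penk reversed by limma-voom (-0.17), over 6 libraries (-0.33) and there with the block (-0.34), and Sst with the interneuron (-0.0649) and non-neuronal (-0.65) covariates and without cKO 2 (-0.24). Npy, near 0 throughout, reversed over 6 libraries (0.0588), with the block (0.0534), and without WT 2 (0.17), cKO 3 (0.02) or cKO 4 (0.03). Pnoc reversed with the non-neuronal covariate (0.10) and without WT 2 (0.04), cKO 1 (0.02), cKO 2 (0.02) or the library labelled cKO 5 (0.11), and Tac1 without WT 2 (0.0422). With 1 library left out, the fold changes ranged from -0.17 to 0.17 for Npy, -0.24 to 0.42 for Sst, -0.69 to -0.25 for Vip, -0.95 to 0.0422 for Tac1, 0.15 to 0.39 for Tac2, 0.02 to 0.37 for Penk, -1.25 to -0.53 for Pdyn and -0.79 to 0.11 for Pnoc. In the exact tests, leaving out the library labelled cKO 5 reversed the mean log2 difference of Sst (0.14) and Penk (-0.0698). The lowest unadjusted p-values were those of Pdyn with the non-neuronal covariate (-2.64, adjusted p 0.124 by edgeR) and Sst over 6 libraries (0.74, adjusted p 0.413; 0.70 and 0.557 with the block). Depth limits Cort and Crh most, with at most 19 and 45 counts in a library.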
